A study of Mus musculus with 12 samples.

Results

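The replication licensing genes examined here are the 6 subunits of the MCM helicase (Mcm2, Mcm3, Mcm4, Mcm5, Mcm6 and Mcm7), the loading factors Orc1, Cdc6 and Cdt1, and Gmnn, which encodes the Cdt1 inhibitor geminin. They were chosen by symbol as helicase subunits and origin licensing factors, and all 10 were present among the 54735 gene symbols of each library. All 10 passed the filter used for testing, a mean of at least 1 TPM over the 12 libraries, as did 11764 genes in all. TPM, a measure of transcript abundance, corrects for gene length and brings every library to the same sum.

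RNA was profiled from the dorsal telencephalon (pallium), which forms the cortex, of C57/Bl6 mouse embryos at stage E13.5, as 3 groups of 4 embryos. Control embryos carried 1 floxed and 1 wild-type allele of Rnu11, which encodes the U11 small nuclear RNA of the minor spliceosome, and were wild type for Trp53, which encodes p53. Embryos homozygous for floxed Rnu11 and wild type for Trp53 are called cKO. Double mutants, called dKO, were homozygous for floxed Rnu11 and for floxed Trp53. Emx1-Cre, a recombinase driven in progenitors of the dorsal forebrain, was present in every embryo, controls included, so controls lose 1 Rnu11 copy in those cells. Cells of other lineages in the dissected tissue, such as microglia and vessel cells, do not arise from Emx1-expressing progenitors. Nothing in the labels says whether embryos came from different litters. In bulk tissue, fewer cells of a type and less RNA per cell cannot be told apart.

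Licensing marks each origin of replication for use in the coming S phase. The origin recognition complex, of which ORC1 is the largest subunit, and CDC6 bind origin DNA and, with CDT1, load the ring of MCM2 to MCM7 as an inactive pair of helicases. Geminin binds CDT1 in S phase and G2 and thereby blocks a second round of loading. Most of these genes are known targets of E2F factors, which are active from late G1 into S phase. Their transcripts are therefore found in cycling cells, which in this tissue include radial glia and intermediate progenitors.

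In GENCODE M21 on GRCm38 all 10 are protein-coding genes, and they lie apart on 8 chromosomes. The helicase genes are Mcm2 at chr6:88883474-88898780 (minus strand), Mcm3 at chr1:20802968-20820312 (minus strand), Mcm4 at chr16:15623897-15637400 (minus strand). The other 3 subunits are Mcm5 at chr8:75109569-75128439 (plus strand), Mcm6 at chr1:128331590-128359664 (minus strand), Mcm7 at chr5:138164583-138172422 (minus strand). The loading factors are Orc1 at chr4:108579423-108614833 (plus strand), Cdc6 at chr11:98907801-98923940 (plus strand), Cdt1 at chr8:122568015-122573554 (plus strand), and the inhibitor is Gmnn at chr13:24751845-24761923 (minus strand).

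The promoters of the genes are shown because licensing genes are known for shared E2F control. RefSeq promoter windows on GRCm38.p6, each with 250 bases before and 50 bases after a gene start, were matched for 8 of the 10 genes, with 2 windows for Mcm7, and Mcm4 and Gmnn had no entry. The letters TTTGGCGC, TTTCCCGC, TTTCGCGC and TTTGCCGC, forms of the E2F motif, were searched on both strands. At least 1 was found in 7 of the 9 windows, compared with 2.26% of 32851 promoter windows of the same length. The 7 windows belong to Mcm3, Mcm5, Mcm6, Mcm7, Orc1, Cdc6 and Cdt1. The CCAAT box was present in 7 of the 9 windows (37.4% of all windows) and the CHR letters TTTGAA or TTTAAA in 2 of 9 (27.6% of all windows). A match describes letters and is not evidence of a bound site. Capitals mark E2F letters, read on either strand, in the sequences that follow. The longer run of capitals in Mcm6 holds TTTGGCGC and, on the other strand, TTTCGCGC, which overlap. Mcm6 (chr1:128359656-128359955, minus strand) and Cdt1 (chr8:122567765-122568064, plus strand) are shown as the members with the lowest values in dKO relative to control. Orc1 (chr4:108579204-108579503, plus strand) is shown as the member called after centring, and Mcm2 (chr6:88898731-88899030, minus strand) as a window without a match.
Mcm6: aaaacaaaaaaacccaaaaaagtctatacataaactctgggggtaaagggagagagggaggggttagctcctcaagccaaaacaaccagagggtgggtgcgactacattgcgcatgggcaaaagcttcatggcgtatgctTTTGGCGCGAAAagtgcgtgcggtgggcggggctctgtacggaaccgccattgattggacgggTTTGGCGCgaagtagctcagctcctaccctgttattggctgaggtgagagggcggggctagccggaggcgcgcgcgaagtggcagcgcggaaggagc
Cdt1: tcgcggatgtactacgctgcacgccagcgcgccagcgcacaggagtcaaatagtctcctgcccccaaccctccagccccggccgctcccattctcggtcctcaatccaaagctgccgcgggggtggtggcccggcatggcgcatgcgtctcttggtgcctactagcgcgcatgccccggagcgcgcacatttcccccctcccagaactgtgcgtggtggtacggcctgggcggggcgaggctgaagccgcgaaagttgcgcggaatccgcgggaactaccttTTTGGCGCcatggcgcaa
Orc1: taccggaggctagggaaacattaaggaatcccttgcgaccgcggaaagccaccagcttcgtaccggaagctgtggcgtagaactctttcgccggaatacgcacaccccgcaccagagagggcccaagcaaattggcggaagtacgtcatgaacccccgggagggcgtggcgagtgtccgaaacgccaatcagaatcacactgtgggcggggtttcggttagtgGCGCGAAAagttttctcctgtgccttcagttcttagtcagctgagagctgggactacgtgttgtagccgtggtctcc
Mcm2: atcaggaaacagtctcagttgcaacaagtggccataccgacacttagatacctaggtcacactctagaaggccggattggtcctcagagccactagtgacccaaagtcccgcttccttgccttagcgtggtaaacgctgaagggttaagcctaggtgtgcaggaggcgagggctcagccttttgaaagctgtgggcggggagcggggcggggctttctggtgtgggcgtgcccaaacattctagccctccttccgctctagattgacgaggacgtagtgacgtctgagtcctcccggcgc

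The labels were checked on the targeted genes. Controls averaged 640.5 ± 86.4 TPM of Rnu11, cKO embryos 144 ± 20.4 and dKO embryos 164 ± 26.3 (SD, n = 4). For Trp53 the means were 3.82 ± 1.73, 4.24 ± 0.404 and 1.22 ± 0.252 TPM (SD, n = 4), so the lower level was found in the dKO libraries. Cdkn1a, the p53 target that encodes the p21 inhibitor of cyclin-dependent kinases, averaged 0.597 ± 0.427, 3.61 ± 0.346 and 0.425 ± 0.206 TPM in the same order. Control 1 was the highest control for both, at 6.37 TPM of Trp53 and 1.24 TPM of Cdkn1a. The other controls had 2.63 to 3.37 TPM of Trp53 and 0.345 to 0.427 TPM of Cdkn1a. Sequencing depth cannot be read from TPM and is unknown here. Nuclear protein-coding genes took 14.6% to 16.3% of the library sum in control, 16.1% to 19.99% in cKO and 14.4% to 15.5% in dKO. The noncoding RNAs Rn7s2 and Rn7sk together took 43.9% to 52.3%, 46.3% to 52.4% and 43.4% to 51.3% in the same order. Each member's TPM is thus a share of a sum in which these RNAs weigh heavily. Across the 11764 genes the median log2 difference was 0.25 between cKO and control, -0.01 between dKO and control and -0.26 between the mutants (dKO minus cKO). Differences are therefore also given relative to the median gene, from a fit on values shifted by the median log2 deviation of each library (median-shift centring).

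The licensing genes covered a wide range of levels in the E13.5 pallium. Mcm7 was the highest, and averaged 64.4 ± 6.43 TPM among controls, 66.6 ± 13.1 among cKO and 63.3 ± 4.04 among dKO embryos (SD, n = 4). Mcm6 followed, and Mcm7 lay above Mcm6 and Mcm6 above Mcm2 in 12 of 12 libraries. Mcm2, Mcm3 and Gmnn had neighbouring levels: Mcm2 exceeded Mcm3 in 9 of 12 libraries and Mcm3 exceeded Gmnn in 9 of 12, so their order was not the same in every embryo. Mcm4 and Mcm5 came next, in that order in 12 of 12 libraries. Over all 12 embryos Mcm3 ranged from 17.9 to 35.7 TPM, Mcm4 from 13.7 to 24.8 and Mcm5 from 11.2 to 18.1, with cKO 4 the highest each time. Transcripts of the 3 loading factors were scarce. Mcm5 stood 5.41 to 8.44 times above Cdc6 in the single libraries. Cdc6 exceeded Cdt1 in 6 of 12 libraries, and Orc1 was the lowest member in all 12.

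**Figure D1:**
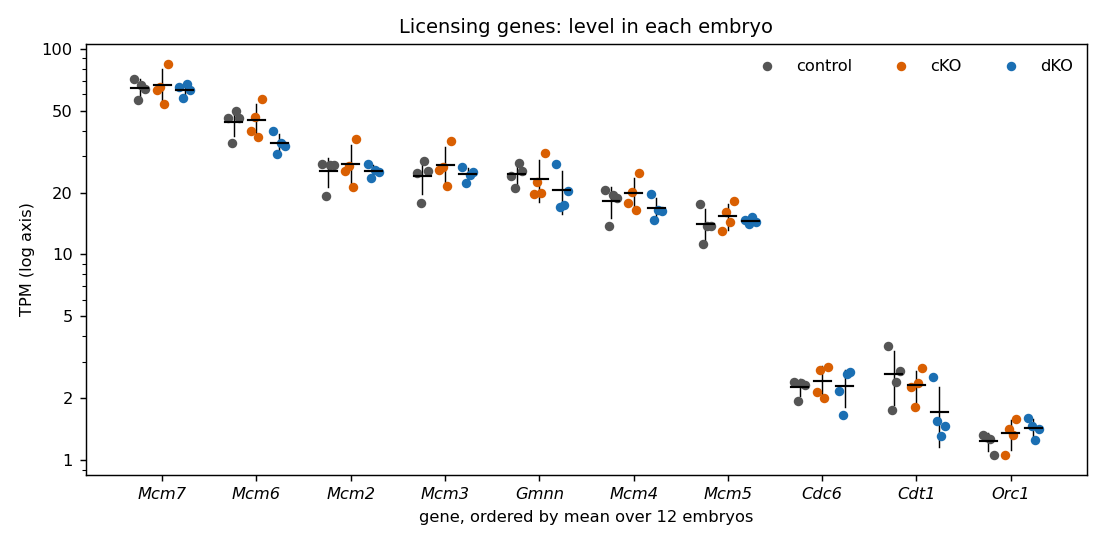
TPM of the 10 licensing genes on a log axis, with 1 point per embryo coloured by group, the group mean as a horizontal bar and the SD as a vertical line (n = 4 per group). Helicase genes and Gmnn lie above 10 TPM in every embryo, Cdc6, Cdt1 and Orc1 lie below 5 TPM, and the groups overlap for every gene.

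In cKO embryos none of the licensing genes was called different from control. As deposited, 0 of 10 members had an adjusted p under 0.05 in limma, where 35.4% of all genes tested were called, 34.3% higher and 1.09% lower. None of the 10 had an unadjusted p under 0.05 in limma either. No member's cKO and control embryos were separate without overlap, which 33.7% of all genes were. The median difference of the 10 genes was 0.07 on the log2(TPM + 1) scale, against 0.25 over all genes. Relative to the median gene, all 10 differences were negative, with a median of -0.18, against -0.0034 over all genes. Again 0 of 10 were called in limma, where 6.68% of all genes were, 3.72% higher and 2.96% lower, and 4 (Gmnn, Cdt1, Orc1 and Mcm7) had an unadjusted p under 0.05. The negative direction was not particular to the members. It was shared by 10 of 10 other ORC and MCM family genes, 11 of 14 licensing control genes, 24 of 26 fork genes and 16 of 16 genes of G2 and mitosis.

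Among the helicase genes in cKO, Mcm2 stood at 27.6, 19.2, 27.3 and 27.3 TPM in controls 1 to 4 and at 25.5, 27.0, 21.2 and 36.3 in cKO embryos 1 to 4. The groups overlapped, with control 2 lowest and cKO 4 highest. Its difference was 0.10 ± 0.15 as deposited and -0.15 ± 0.12 relative to the median gene (SE; limma adjusted p = 0.599 and 0.547). Mcm3, whose protein sits next to MCM5 in the ring, had the largest deposited difference of the 6, at 0.17 (95% interval -0.17 to 0.51), and differed by -0.08 relative to the median gene (95% interval -0.36 to 0.20). Mcm4 and Mcm5 differed by 0.12 and 0.13 as deposited and by -0.13 and -0.12 relative to the median gene. Mcm6 and Mcm7 differed by 0.02 and 0.03 as deposited and by -0.23 and -0.22 relative to the median gene, with limma adjusted p-values of 0.28 and 0.216 for the latter. All 6 deposited differences were positive, but without control 2 only 2 of the 6 were, and without cKO 4 only 3 of the 6. Relative to the median gene all 6 stayed negative and uncalled whichever of the 12 embryos was left out, though for Mcm3 the value reached -0.00.

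None of the loading factors, nor their inhibitor, was called in cKO on either scale. Orc1 stood at 1.33, 1.30, 1.26 and 1.06 TPM in controls 1 to 4 and at 1.06, 1.42, 1.33 and 1.59 in cKO embryos 1 to 4. Its difference was 0.07 as deposited and -0.18 relative to the median gene (limma adjusted p = 0.568 and 0.227). Cdc6, the ATPase that joins ORC to load the helicase, stood at 2.40, 1.94, 2.37 and 2.33 TPM in controls and 2.15, 2.74, 2.00 and 2.85 in cKO. The groups overlapped as deposited, and after centring the cKO embryos all lay below the controls, as they did for 7.81% of all genes. Its difference was 0.07 as deposited and -0.18 ± 0.10 relative to the median gene (SE; limma adjusted p = 0.641 and 0.358). Cdt1 stood at 3.60, 1.75, 2.41 and 2.71 TPM in controls and 2.27, 1.81, 2.37 and 2.79 in cKO, inside the control range in every embryo. Gmnn stood at 24.1, 20.9, 27.7 and 25.5 TPM in controls and 19.8, 22.5, 19.96 and 31.0 in cKO. As deposited Cdt1 and Gmnn differed from control by -0.11 and -0.09 (limma adjusted p = 0.600 and 0.684). Relative to the median gene they differed by -0.36 and -0.34, the lowest 2 values of the 10 (limma adjusted p = 0.211 and 0.217). Centring shifts log2(TPM + 1) equally at every level, whereas a rescaling of TPM before the log moves scarce transcripts less. After rescaling libraries to their protein-coding sum, Orc1, Cdc6 and Cdt1 differed by -0.02, -0.04 and -0.22. None was called, and the median over all genes was then 0.12.

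In dKO embryos, 7 licensing genes had differences from control between -0.10 and 0.12 as deposited, and Gmnn, Mcm6 and Cdt1 had differences of -0.26, -0.33 and -0.41, none of which was called. As deposited, 0 of 10 members were called in limma, where 5.19% of all genes were, 1.79% higher and 3.4% lower. Relative to the median gene 0 of 10 were called in limma, where 8.43% of all genes were, 3.74% higher and 4.69% lower. Groups without overlap were found for 0 of 10 members on either scale, compared with 13.6% and 14.1% of all genes. At an unadjusted p under 0.05 there were 2 on either scale, Cdt1 and Mcm6. The median difference of the 10 was -0.01 as deposited and 0.01 relative to the median gene, with 5 positive and 5 negative on each scale.

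Mcm6 stood at 45.9, 34.9, 49.9 and 46.1 TPM in controls 1 to 4 and at 39.6, 30.8, 34.7 and 33.8 in dKO embryos 1 to 4. Control 2 was the lowest control and overlapped with dKO 1, and the other 3 controls lay above all 4 dKO embryos. The difference was -0.33 ± 0.15 as deposited and -0.31 ± 0.12 relative to the median gene (SE; limma adjusted p = 0.223 and 0.118). Cdt1 stood at 2.54, 1.56, 1.32 and 1.47 TPM in dKO embryos 1 to 4, so dKO 1 lay inside the control range and the other 3 lay below every control. Its difference was -0.41 ± 0.17 as deposited and -0.39 ± 0.16 relative to the median gene (SE; limma adjusted p = 0.192 and 0.155). With dKO 1 left out, the centred difference of Cdt1 was -0.53 and was called (limma adjusted p = 0.0374). With array weights, which give less weight to variable libraries, Mcm6 and Cdt1 were both called lower in dKO, at -0.39 and -0.50 (limma adjusted p = 0.0414 and 0.0303).

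Gmnn stood at 27.4, 17.0, 17.5 and 20.3 TPM in dKO embryos 1 to 4, with dKO 1 close to the highest control and the other 3 below all controls. Its difference was -0.26 ± 0.17 as deposited and -0.24 ± 0.15 relative to the median gene (SE; limma adjusted p = 0.423 and 0.351). The other 5 helicase genes lay between -0.10 (Mcm4) and 0.07 (Mcm5) as deposited. Mcm7 stood at 65.4, 57.8, 67.1 and 63.1 TPM in dKO, within the control values of 71.5, 56.0, 66.3 and 63.9. Its 95% interval relative to the median gene ran from -0.21 to 0.21. Cdc6 differed by 0.00 and Orc1 by 0.12 as deposited (limma adjusted p = 0.996 and 0.522), and by 0.02 and 0.14 relative to the median gene (limma adjusted p = 0.929 and 0.332).

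**Figure D2:**
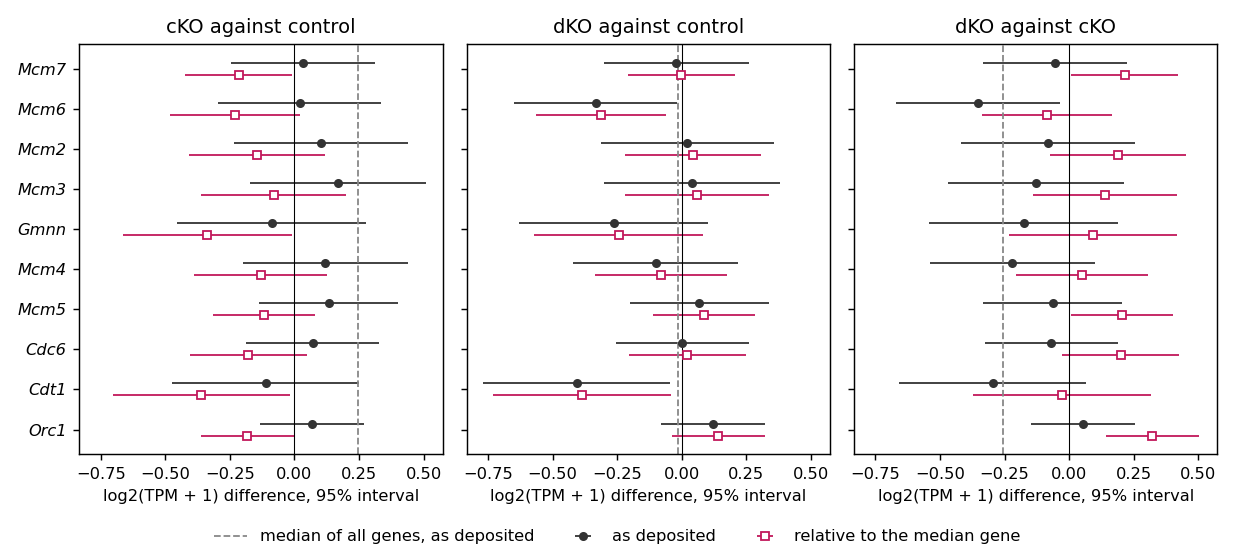
Fitted log2(TPM + 1) difference of each licensing gene with its 95% interval in the 3 comparisons, as deposited (filled circles) and relative to the median gene after centring (open squares); dashed lines mark the median of all genes as deposited. In cKO against control the deposited values scatter around 0, left of the dashed line at 0.25, and in dKO against control Cdt1 and Mcm6 are the lowest.

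Between the mutants, 0 of 10 members were called in limma as deposited, where 39.4% of all genes were, 0.612% higher and 38.8% lower in dKO. No member's groups were without overlap, which 33.2% of all genes were. The median of the 10 members was -0.11, against -0.26 for all genes. The lowest member was Mcm6, at -0.35 ± 0.15 (SE; limma adjusted p = 0.0701), the 1 member with an unadjusted p under 0.05. Without cKO 3 it was called, at -0.44 (limma adjusted p = 0.0371), and relative to the median gene it differed by -0.08 (limma adjusted p = 0.701). Relative to the median gene, 8 of the 10 were positive with a median of 0.16, against 0.01 over all genes. In neighbouring lists 8 of 10 other ORC and MCM family genes and 14 of 26 fork genes were positive, but 2 of 6 of nucleotide supply. Of the 10 members 1, Orc1, was called higher in dKO, where 5.93% of all genes were called, 2.1% higher and 3.83% lower. Orc1 stood at 1.61, 1.46, 1.25 and 1.41 TPM in dKO embryos 1 to 4, overlapping with cKO as deposited, and after centring all 4 dKO embryos lay above all 4 cKO embryos. Its centred difference was 0.32 ± 0.08 (SE; limma adjusted p = 0.0417), and with single embryos left out it ranged from 0.28 to 0.36, with a call in 3 of 12 settings. Its deposited difference was 0.05 (limma adjusted p = 0.65), so the call rests on the scaling, and Orc1 lies just above the filter of 1 TPM. With TPM rescaled to the protein-coding sum before the log, Orc1 differed by 0.18 and was not called (limma adjusted p = 0.149). Groups without overlap after centring were seen for Orc1 and Mcm5, both higher in dKO, as for 7.32% of all genes. This comparison and the one of cKO with control share the cKO libraries, and cKO had the highest protein-coding share.

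Proportions within a library do not depend on its scaling, and were compared for the pair of Gmnn and Cdt1. Gmnn exceeded Cdt1 by 6.69, 11.9, 11.5 and 9.42 times in controls 1 to 4, by 8.71, 12.4, 8.41 and 11.1 times in cKO and by 10.8, 10.9, 13.3 and 13.8 times in dKO. The dKO mean was the highest, but 2 controls and 2 cKO embryos exceeded the lowest dKO embryo. The log2 ratio averaged 3.27 ± 0.383 among controls, 3.33 ± 0.274 among cKO and 3.60 ± 0.187 among dKO embryos (SD, n = 4). The difference was 0.06 between cKO and control, 0.33 between dKO and control and 0.27 between the mutants, with exact two-sided permutation p-values of 0.914, 0.171 and 0.171 (adjusted over the 3 comparisons 0.914, 0.257 and 0.257). Without control 1 the difference of cKO from control was -0.12 and that of dKO 0.15, and without control 2 they were 0.16 and 0.43. The smallest p that 70 assignments of 4 against 4 embryos allow is 0.0286.

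The 6 helicase proteins act in equal numbers in the ring, and the balance of their transcripts was described as the share of each in their summed TPM, a measure chosen after the values were seen. Their sum averaged 190.3 ± 25.6 TPM among controls, 202 ± 39.6 among cKO and 179 ± 12.7 among dKO embryos (SD, n = 4). Mcm6 made up 22.1%, 22.8%, 24.3% and 23.6% of the sum in controls 1 to 4, 21.5%, 23.1%, 22.6% and 22.2% in cKO, and 20.5%, 18.9%, 18.9% and 19.0% in dKO. All 4 dKO embryos lay below all 8 others. How often such a share separates the groups for other sets of genes was not measured. In TPM itself, Mcm6 in dKO overlapped with control and with cKO. Controls had a mean share of 23.2% ± 0.974, cKO embryos of 22.3% ± 0.649 and dKO embryos of 19.3% ± 0.77 (SD, n = 4). The dKO mean differed from that of control by -3.89 percentage points and from that of cKO by -3.02. Both gave an exact two-sided permutation p of 0.0286, which no 4 against 4 design can go below. Adjusted over the 18 tests of 6 genes in 3 comparisons, the exact permutation p was 0.171. An adjusted value under 0.05 would need most of the 18 tests to be at 0.0286. The adjusted values of the shares therefore cannot decide whether a single gene differs. With single embryos left out the first ranged from -4.28 to -3.52 and the second from -3.41 to -2.78. The cKO share of Mcm6 differed from control by -0.87 points (exact permutation p = 0.2, adjusted 0.327).

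As shares sum to the whole, a lower share of Mcm6 goes with a higher total of the other 5. That of Mcm2 was 14.2% ± 0.19 in dKO and 13.3% ± 0.591 in control, with no overlap (exact permutation p = 0.0286, adjusted 0.171). Mcm4, in contrast, made up 9.31% ± 0.563 in dKO and 9.49% ± 0.388 in control (exact permutation p = 0.629). Among the 5, Mcm7 in dKO had the largest mean excess over cKO, 2.29 points, with overlapping embryos (exact permutation p = 0.0571, adjusted 0.257). Apart from Mcm6 against both groups and Mcm2 against control, all in dKO, every share overlapped in every comparison.

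**Figure D3:**
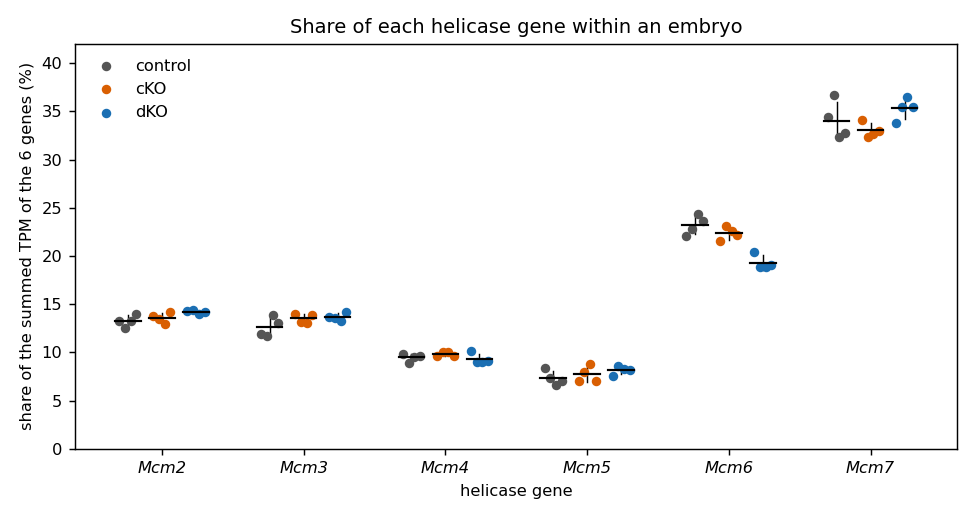
Share of each helicase gene in the summed TPM of Mcm2 to Mcm7 within an embryo, 1 point per embryo, with the group mean (bar) and SD (line), n = 4 per group. The 4 dKO points of Mcm6 lie between 18.9% and 20.5%, below the 8 points of the other groups, which start at 21.5%.

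The helicase genes varied together between embryos. After centring, Pearson correlations between the 6 genes over the 12 embryos ran from 0.22 to 0.95 with a median of 0.68 over 15 pairs, and the highest was between Mcm2 and Mcm3. The 30 pairs that include Orc1, Cdc6, Cdt1 or Gmnn ran from -0.13 to 0.85 with a median of 0.42. These describe 12 libraries from 3 groups, and values from the same library share its composition. Orc1, Cdc6 and Cdt1 are scarce, while the more abundant Gmnn had r from 0.29 (Mcm5) to 0.85 (Mcm6) with the helicase genes. Correlations between pairs of other genes were not measured for comparison, and the part of expression level was not tested. Control 2 was the lowest control for 9 of the 10 genes, all 6 helicase genes included, both as deposited and after centring. cKO 4 was the highest cKO embryo for 10 of 10 as deposited and for 7 of 10 after centring. dKO 2 was the lowest dKO embryo for 8 of 10 on either scale. The protein-coding share was 14.6% in control 2, the lowest of its group, and 19.99% in cKO 4, the highest of all; its part in the members' values was not tested.

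**Figure D4:**
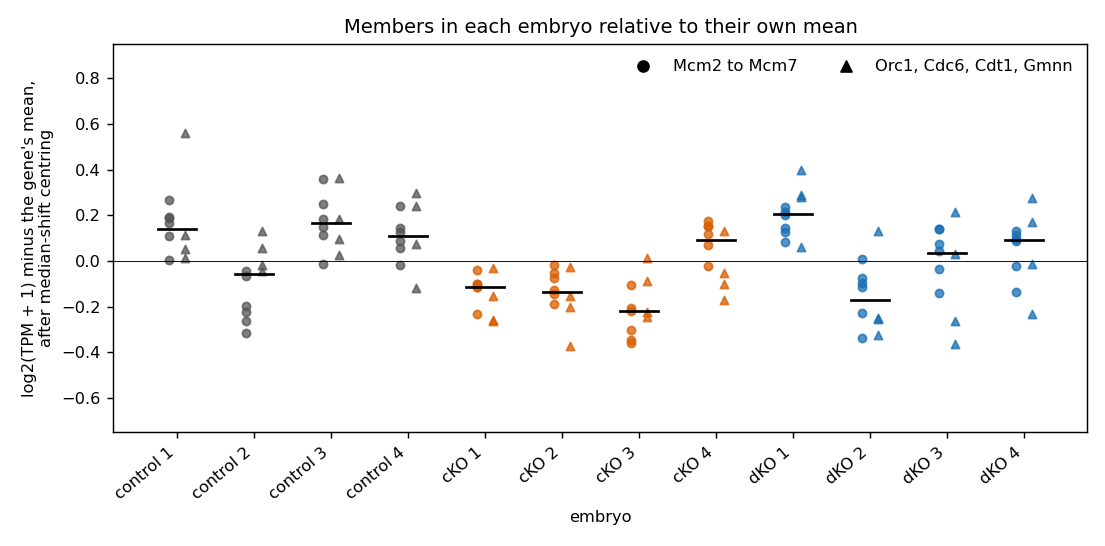
Each licensing gene in each embryo as log2(TPM + 1) minus the gene's mean over the 12 embryos, after median-shift centring; circles are helicase genes, triangles are Orc1, Cdc6, Cdt1 and Gmnn, and bars are the median of the 10. Control 2, cKO 1 to 3 and dKO 2 have medians below 0, and the other embryos above 0.

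The genes with the most similar pattern were sought among 5796 other genes whose mean reached 5 TPM, by Pearson correlation with the mean standardized profile of the 10 members over the 12 centred libraries. The 8 highest values of r were for Mthfd2 (0.97), Fen1 (0.96), Puf60 (0.93), Skp2 (0.93), Snrpb (0.93), Gm7901 (0.92), Tuba1b (0.92) and Zfp422 (0.92). Each member is itself part of that mean, which raises its r, so the members' values cannot be set beside those of other genes. Among members the lowest r was for Orc1 (0.40), Cdt1 (0.60) and Cdc6 (0.68), the scarcest members, and the highest for Mcm4 (0.92). Fen1 encodes the flap nuclease that trims Okazaki fragments, and Skp2 the ubiquitin ligase subunit that marks p27 and CDT1 for degradation. Fen1 was not called in any of the 3 comparisons in limma, with adjusted p-values from 0.831 to 0.913 as deposited. After centring they ran from 0.199 to 0.876.

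Genes of neighbouring steps of replication were then counted on lists written from general knowledge. Nucleotide supply (6 genes) had the lowest medians. As deposited 1 of 6 was called lower in cKO and 4 of 6 in dKO against control, and relative to the median gene 6 of 6 and 5 of 6, with medians of -0.41 and -0.48. Over all genes 1.09% and 3.4% were called lower as deposited, and 2.96% and 4.69% relative to the median gene. Called higher in cKO were 34.3% as deposited and 3.72% relative to the median gene. Tk1, thymidine kinase, fell from a control mean of 20.3 ± 2.43 TPM to 11.2 ± 1.35 among dKO embryos (SD, n = 4; log2 difference as deposited -0.81, limma adjusted p = 0.0149). Rrm2, the regulated subunit of ribonucleotide reductase, fell from 17.7 ± 3.67 to 10.2 ± 0.729 TPM (log2 difference as deposited -0.72, limma adjusted p = 0.00732). Tyms, thymidylate synthase, fell from 45.6 ± 2.30 TPM to 37.5 ± 5.73 among cKO and 30.6 ± 0.972 among dKO embryos (SD, n = 4; limma adjusted p = 0.0414 and 0.00669).

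Among 26 replication fork genes, the deposited scale gave 2 calls lower and 1 higher for cKO, and the centred scale 5 lower and 0 higher. For dKO the counts were 3 and 4 lower and 0 higher. Rfc5, a clamp loader subunit, fell from 12.4 ± 1.399 TPM to 8.53 ± 1.21 among cKO and 7.05 ± 1.28 among dKO embryos (SD, n = 4; limma adjusted p = 0.012 and 0.00534). Pole2, a subunit of the leading strand polymerase, fell from 8.83 ± 0.838 to 4.81 ± 0.636 TPM in dKO (limma adjusted p = 0.00229). Clspn, a mediator of the replication checkpoint, fell from 3.74 ± 0.386 to 2.44 ± 0.348 TPM in dKO (limma adjusted p = 0.0215). Pcna, the sliding clamp and a p53 target, was named after its values were seen: it fell from 156 ± 10.3 to 121 ± 17.99 TPM in cKO (limma adjusted p = 0.036) and stood at 121 ± 15.8 in dKO (limma adjusted p = 0.105).

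Of 10 other ORC and MCM family genes, 0 were called in cKO in limma on either scale (0 as deposited and 1 after centring at an unadjusted p under 0.05), and 1 as deposited and 2 after centring were lower in dKO against control. Orc3, a core ORC subunit, fell from 29.3 ± 1.53 to 22.2 ± 1.77 TPM among dKO embryos (SD, n = 4; limma adjusted p = 0.0184). Of 12 genes of origin firing, 1 was called higher as deposited and 1 lower after centring in cKO, and 1 was lower in dKO on both scales. The gene called higher was Cdc45, part of the active helicase, at 0.30 (limma adjusted p = 0.0321), and relative to the median gene it differed by 0.05 (limma adjusted p = 0.746). The gene called lower in dKO was Donson, a replisome component, with means of 6.09 ± 0.60 TPM among controls and 3.72 ± 0.316 among dKO embryos (limma adjusted p = 0.0196). Of 14 licensing control genes, 2 were called higher as deposited and 4 lower after centring in cKO, where 2.96% of all genes were called lower after centring. In dKO against control 1 and 2 were lower. Both calls in cKO as deposited, Cul4a of the ubiquitin ligase that targets CDT1 (0.41, limma adjusted p = 0.0055) and Kat7, an acetyltransferase that helps loading (0.33, limma adjusted p = 0.0274), were lost relative to the median gene, at 0.16 and 0.08 (limma adjusted p = 0.204 and 0.619). Ccne2, the cyclin E2 of the G1 to S transition, fell from 6.91 ± 0.399 to 3.73 ± 0.491 TPM in dKO (limma adjusted p = 0.00621). Whether the members differed from these lists was not tested.

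**Figure D5:**
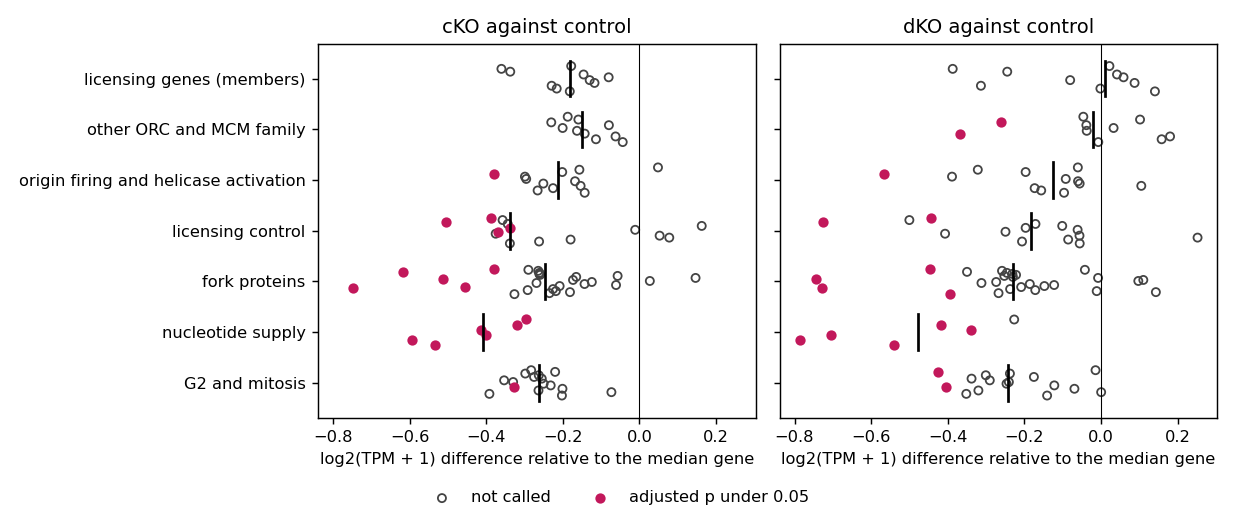
Log2(TPM + 1) difference relative to the median gene for each gene of the licensing members and of 6 neighbouring lists, in cKO and in dKO against control; filled points have a limma adjusted p under 0.05 and bars are list medians. No licensing member is filled in either panel, and the nucleotide supply list has the lowest median, at -0.41 and -0.48.

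Markers of G2 and mitosis and of cell types in the tissue were measured beside the members. Their calls stand against the shares over all genes. In cKO against control 34.3% were called higher and 1.09% lower as deposited, and 3.72% and 2.96% after centring. In dKO 3.4% were called lower than in control as deposited and 4.69% after centring. Against cKO these shares were 38.8% and 3.83%. Of 16 genes of G2 and mitosis, 0 were called as deposited and 1 lower after centring in cKO, and 1 and 2 lower in dKO against control. Kif11, a spindle motor, fell from 15.6 ± 0.825 to 11.4 ± 1.13 TPM in dKO (limma adjusted p = 0.0259). Of 10 radial glia markers, cKO had 2 calls higher and 1 lower on the deposited scale and 0 and 2 on the centred scale, and dKO had 0 on either scale in limma. Of 6 intermediate progenitor markers, the same counts were 1 and 1, then 0 and 2, and 1 was lower in dKO on both scales. Radial glia markers summed to 262 to 297 TPM in control, 309 to 366 among cKO and 286 to 291 among dKO embryos. Intermediate progenitor markers summed to 37.8 to 52.5, 38.0 to 49.6 and 34.98 to 43.3. All sums are of deposited TPM, on which the median log2 difference of all genes between cKO and control was 0.25. Of the 10 radial glia markers, 5 were higher and 5 lower in cKO as deposited (median 0.04). After centring, 3 were higher and 7 lower (median -0.21). The 10 neuron markers summed to 253 to 280 TPM in control, 347 to 425 among cKO and 179.6 to 274 among dKO embryos, with 6 of 10 called higher in cKO as deposited and 1 after centring. In dKO, 1 and 2 neuron markers were called lower than in control on the same scales, and 8 and 3 lower than in cKO. The 8 microglia markers summed to 9.71 to 11.2 TPM in control, 34.97 to 49.7 among cKO and 10.99 to 14.98 among dKO embryos, and 5 of the 6 tested were called higher in cKO on both scales. The 7 vessel markers summed to 9.72 to 12.4, 19.2 to 25.1 and 12.1 to 18.8 TPM in the same order, with 5 of the 5 tested called higher in cKO as deposited and 3 after centring. The 7 interneuron markers summed to 1.73 to 2.43, 3.43 to 5.29 and 1.68 to 3.65 TPM in that order. On this deposited scale every cKO sum lay above all controls, as did the cKO values of 32.7% of all genes. The 1 interneuron marker tested, Dlx1, was called higher in cKO as deposited (0.58, limma adjusted p = 0.0244). Relative to the median gene Dlx1 differed by 0.34 (limma adjusted p = 0.334), and its cKO and control embryos overlapped. In all libraries 5 red blood cell genes summed to between 1381 and 2235 TPM. No marker of any of these lists was at 0 in all embryos of a group. The part of these cell types in the members' values was not tested.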

How the data were processed

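TPM values were deposited, 1 table for each embryo without a header; that they are TPM was inferred from fractional values with a sum of 1000000 in every library. HISAT2 and mm10 are named in the submitters' processing notes; the quantification tool and annotation are not given in the sources used here. Gene types came from GENCODE M21 and promoters from RefSeq, both on GRCm38, the assembly of mm10. Groups came from the sample labels. The main fit used limma 3.58.1 (R 4.3.3, lmFit, eBayes with trend) on log2(TPM + 1), a scale that compresses changes of scarce transcripts. It covered 11764 genes whose mean reached 1 TPM, with 3 groups in 1 model, Benjamini-Hochberg adjustment over all of them and a threshold of 0.05. Ratios and shares were compared by exact permutation tests. All 10 members are named, and from every other list up to 3 called genes with the largest differences. Members and lists were chosen with earlier results of these data known. The limma p-values set a group difference against the spread between these embryos, estimated partly from all genes tested. The permutation p-values rank a difference among all assignments of the embryos to groups. Simulated data for cKO against control held 11764 genes, of which 200 were changed by 1 on the log2 scale. Of these, 183 were recovered, with 9 false calls. A common shift of 0.25 added to every gene in cKO gave 4142 false calls, and centring brought them back to 9. Centring removes such a common shift by construction, so this checks the code and cannot show which scale suits the real data. Alternatives were other pseudocounts, filters, scalings and weights, a replicate block, and leaving out each embryo. RefSeq rescaling, embryos left out after centring, and helicase shares were chosen after seeing the data. Plots were drawn with matplotlib 3.10.9.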

Additional observations from a re-analysis of the deposited data

Results flagged for a closer look

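For the TPM of the 10 members, the 6 helicase shares and the ratio of Gmnn to Cdt1, the distance of the highest and the lowest embryo from its neighbour was set against the range of the 4 embryos. In 4 of 51 groups 1 embryo lay apart from the other 3 by Dixon's critical value, where chance alone gives about 1 in 20, or 2.55. Mcm2 in control 2 stood at 19.2 TPM, with the other controls at 27.3 to 27.6. Cdc6 in control 2 stood at 1.94 TPM, with the others at 2.33 to 2.40. In dKO 1, the share of Mcm4 in the helicase sum was 10.2%, with the others at 8.98% to 9.10%, and that of Mcm6 was 20.5%, with the others at 18.9% to 19.0%.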

How the results depend on the processing

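As deposited, limma called 4163, 610 and 4636 genes for cKO against control, dKO against control and dKO against cKO, in that order. The counts were 1900, 294 and 2220 with a mean of at least 5 TPM, which leaves 7 members, without Cdc6, Cdt1 and Orc1. They were 786, 992 and 698 with median-shift centring, 810, 1029 and 798 with quantile normalization, 1539, 1080 and 1139 with protein-coding rescaling and 865, 1071 and 1012 with rescaling to RefSeq protein-coding genes. Array weights gave 1579 for dKO against control. Higher and lower calls after protein-coding rescaling were 11.3% and 1.74%, 5.44% and 3.74%, and 1.4% and 8.28% of all genes; the cause of these differences was not tested. Of the members, cKO against control gave 0 calls under every alternative run; at an unadjusted p under 0.05 there were 0 as deposited and 4 after centring. dKO against control gave 2 calls with array weights (Mcm6 and Cdt1). dKO against cKO gave 1 with centring (Orc1), 1 with quantile normalization (Orc1, 0.34, limma adjusted p = 0.0446) and 1 with array weights (Mcm6, -0.37, limma adjusted p = 0.0268). With each embryo left out, counts over all genes ranged from 2468 (without cKO 2) to 4353, from 333 (without control 4) to 705 and from 3082 (without cKO 2) to 4851. After centring they ranged from 461 to 951, from 542 to 1035 and from 253 to 728. Members called then ranged from 0 to 1 for dKO against control (after centring, Cdt1 without dKO 1) and from 0 to 1 for dKO against cKO. In that comparison Cdc6, -0.07 as deposited and as low as -0.13 without cKO 3, was called higher at 0.31 after centring without dKO 2 (limma adjusted p = 0.0407).

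The replicate numbers gave no sign of pairing: correlations of deviations between same-numbered embryos ran from -0.0954 to 0.0745. In 2 of the 12 same-numbered pairs that correlation exceeded those with other numbers. These values cannot exclude a pairing by litter or processing. With the replicate block, 0 members were called in any comparison, and with the block after centring 502 genes were called between cKO and control and 415 between the mutants. Depth is unknown, so the counting error of the scarce Orc1, Cdc6 and Cdt1 cannot be given.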
